A study of Mus musculus with 4 samples.

Results

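The genes of iron storage and transport described here are 8 of the 27487 gene symbols in the deposited count tables, taken by name: the ferritin genes *Fth1*, *Ftl1* and *Ftl2-ps*, the carrier *Trf*, the uptake genes *Tfrc* and *Slc11a2*, the exporter *Slc40a1* and the haem-degrading gene *Hmox1*. All 8 were found. Their levels were compared across the cell types of the mouse cortex, between genotypes and between sexes. Single cells of the cortex were profiled by Drop-seq, which tags each mRNA molecule with a unique molecular identifier (UMI) so that molecules and not reads are counted. There were 4 libraries, female wild-type, female Tg2576, male wild-type and male Tg2576, and values below are given in that order. Each library was made from the pooled cells of 9 mice aged 24 weeks, so that differences between animals within a pool were not measured. The Tg2576 mice carried a human *APP* transgene with the Swedish mutation, in heterozygous form on a mixed B6;SJL background, and the wild-type mice were their littermates. All mice were perfused with PBS and all tissue passed through the same enzymatic dissociation for adult brain.

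Iron is kept inside cells in ferritin, a shell of heavy chains, which oxidise iron, and light chains, which help it to mineralise. Transferrin carries iron between cells, the transferrin receptor takes it up, and ferroportin is the known route of iron out of cells. In brain, oligodendrocytes are known for high iron and ferritin, capillary endothelium for the transferrin receptor through which iron enters, and microglia as phagocytes. Iron regulatory proteins control the translation of ferritin mRNA, which mRNA counts do not measure, and the stability of transferrin receptor mRNA, which they can reflect.

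From 3000 barcodes per library, 4835 cells were kept in all, 1044, 1249, 1010 and 1532 in the 4 libraries, with 1593675 to 1758582 UMIs per library. A total of 6 cell types had enough cells in every library to be fitted: microglia, astrocytes, endothelial cells, oligodendrocytes, mural cells and a class carrying neuroblast or progenitor markers. Between 7.87% and 17.2% of the UMIs were mitochondrial, with both lowest values in the male libraries. The female wild-type library also stood apart by red cell RNA, since its endothelial cells held 2579 UMIs of erythrocyte markers and those of each other library held 8 to 11. *Xist* was at 1034 and 924 counts per 1000000 UMIs (CPM) in the female libraries and at most 1.71 CPM in the male ones. The *App* row, a check of the transgene, was at 889 and 1178 CPM in the wild-type and 1575 and 1567 CPM in the Tg2576 libraries. Between libraries, 27 barcodes were shared, 6 of them among kept cells.

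The iron genes led in different cell types. Among the fitted cell types, *Fth1* and *Trf* were highest in oligodendrocytes, *Ftl1* and *Hmox1* in microglia, and *Tfrc* and *Slc40a1* in endothelial cells. For these 6 of the 7 members with at least 100 UMIs in the fitted cell types, the lowest of the 4 libraries in the leading type lay above the highest library of every other fitted type. Over all genes with that many UMIs, 26.7% had a leading type separated in this way, and 8 of 26 genes on a wider list of iron genes did. The exception was *Ftl2-ps*, whose microglial levels of 107 to 675 CPM overlapped those of mural cells, up to 203 CPM. These cell types are clusters of the same cells, formed without the iron genes, so their levels are described without a test.

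**Figure D1:**
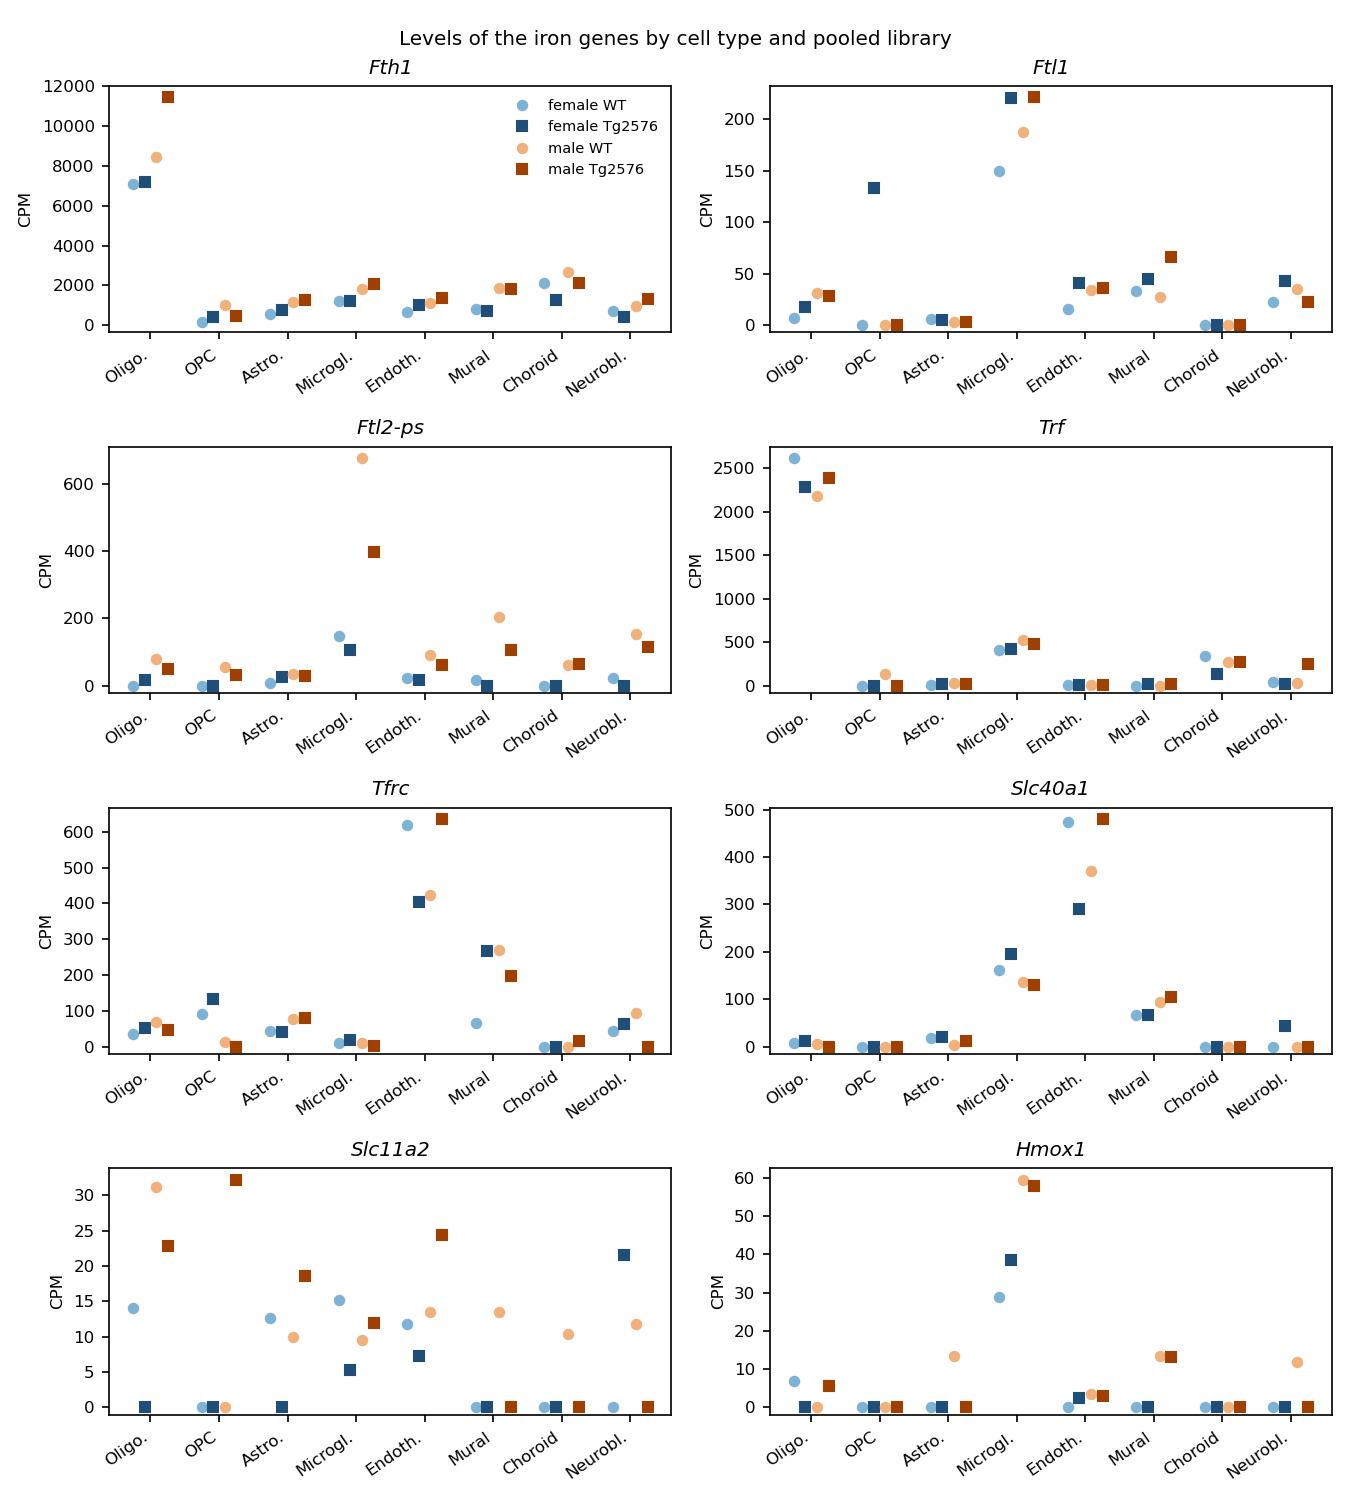
Level of each iron gene (y axis, CPM, a separate scale in each panel) in 8 cell types (x axis); each point is 1 library, circles wild-type and squares Tg2576, blue female and orange male. *Fth1* reached 11453 CPM in oligodendrocytes, where all 4 libraries lay above every other type, and *Tfrc* and *Slc40a1* stood highest in endothelial cells.

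*Fth1* encodes the ferritin heavy chain (GRCm38, chr19:9980600-9985111). Its level in oligodendrocytes was 7110, 7171, 8447 and 11453 CPM. In microglia it was 1201, 1209, 1800 and 2063 CPM, and in astrocytes 583, 747, 1169 and 1280 CPM. The oligodendrocyte libraries were thus several times above the next fitted type, and microglia, mural cells, endothelial cells and astrocytes overlapped one another. Outside the fitted types, choroid plexus cells, with 12 to 42 cells per library, held 1259 to 2663 CPM. When cells were thinned to 500 UMIs, 91.0% to 98.0% of oligodendrocytes had an *Fth1* UMI, against 37.8% to 56.6% of microglia and 24.5% to 48.6% of astrocytes. Unthinned, these shares were 96.4% to 100%, 61.9% to 85.8% and 50% to 64.4%.

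The row most like *Fth1* was *Gm6977*, which RefSeq lists as a pseudogene (GRCm38, chrX:90744394-90745234). Over the 24 sums of 6 cell types by 4 libraries its log2 level correlated with that of *Fth1* at r = 0.993 and rho = 0.977, the highest of 5452 genes compared. The points share libraries and cells, so this is a description. For every 100 *Fth1* UMIs there were 42.4, 46.6, 44.1 and 40.2 *Gm6977* UMIs over all kept cells. In oligodendrocytes the range was 45.1 to 51.8 and in microglia 34.9 to 43.9. How reads shared by a gene and its copies were counted is not given in the sources used here, so the *Fth1* level may hold only a share of the reads of that transcript.

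**Figure D2:**
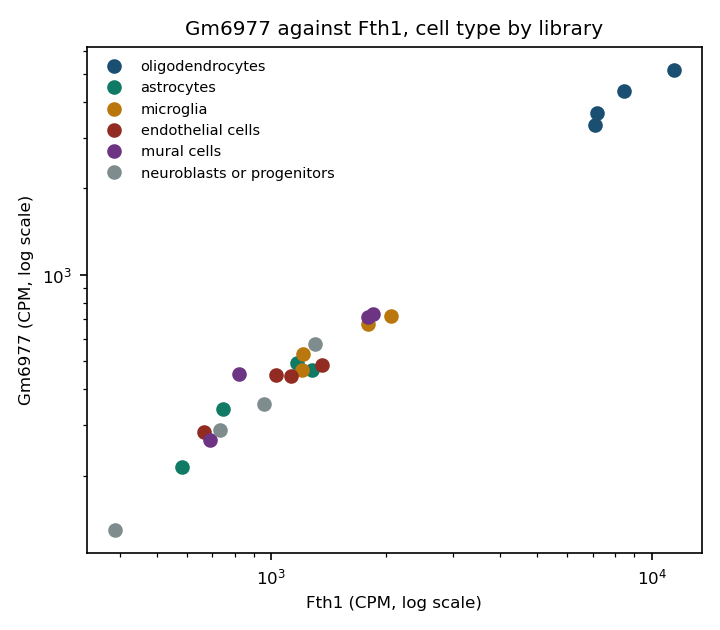
*Gm6977* (y axis) against *Fth1* (x axis), both CPM on log scales; each of the 24 points is 1 cell type in 1 library, coloured by type. The points form a narrow band from the neuroblast or progenitor class of the female Tg2576 library, at 387 CPM *Fth1*, to oligodendrocytes of the male Tg2576 library, at 11453 CPM.

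*Ftl1* encodes the ferritin light chain (GRCm38, chr7:45457944-45459886). In microglia it was at 150, 221, 188 and 221 CPM, from 98 to 130 UMIs per library. Every other fitted type lay at or below 66.0 CPM, and astrocytes at 3.11 to 6.30 CPM. Heavy and light chain transcripts therefore had different leading types. Microglia held 8.01, 5.48, 9.57 and 9.32 *Fth1* UMIs per *Ftl1* UMI, and endothelial cells 25.1 to 42.2. In oligodendrocytes and astrocytes the light chain had 1 to 5 UMIs per library, which limits any ratio there.

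*Ftl2-ps* is named as a pseudogene of the light chain (GRCm38, chr4:125504080-125505018), and reads may have been divided between its row and that of *Ftl1*. It was at 148, 107, 675 and 397 CPM in microglia, so that both male libraries were above both female ones. Its share of the UMIs of both rows was 49.7%, 32.6%, 78.2% and 64.2% in microglia. In all other kept cells together the share was 51.9%, 34.5%, 81.7% and 71.0%. The 4 libraries thus stood in the same order, with similar shares, inside and outside microglia. With both rows summed, microglia were at 298, 328, 864 and 618 CPM. Per light chain UMI of the summed rows they held 4.03, 3.69, 2.08 and 3.34 *Fth1* UMIs.

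**Figure D3:**
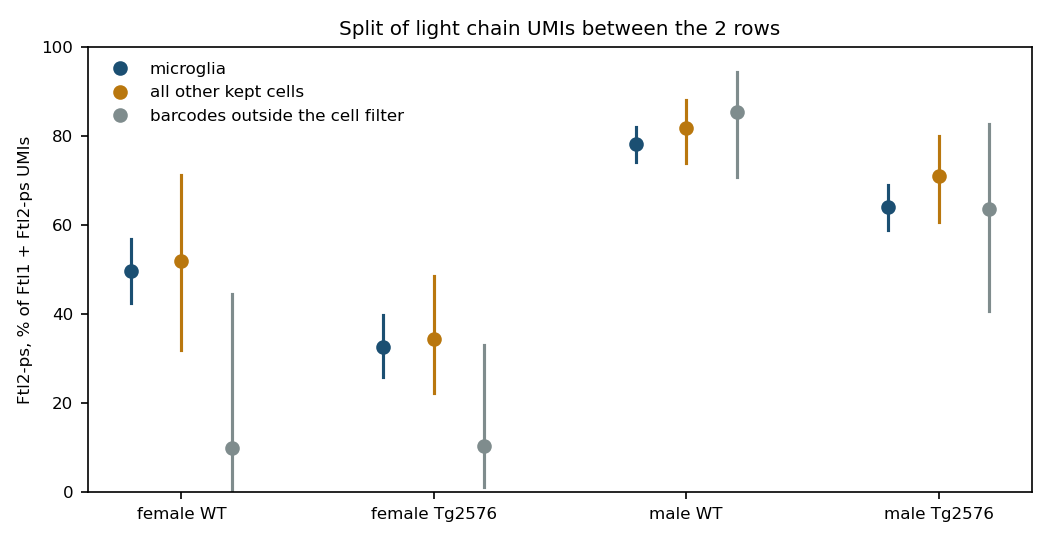
*Ftl2-ps* as a percent of the UMIs of *Ftl1* and *Ftl2-ps* together (y axis) in each library (x axis), for microglia, all other kept cells and barcodes outside the cell filter, with 95% exact binomial intervals for counting error only. In both groups of kept cells the share was lowest in the female Tg2576 and highest in the male wild-type library; outside the filter it was 10%, 10.5%, 85.4% and 63.6%.

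*Trf* encodes transferrin, the iron carrier (GRCm38, chr9:103208876-103230286). Oligodendrocytes held 2614, 2288, 2184 and 2381 CPM. Microglia held 415, 419, 532 and 480 CPM, while astrocytes had 15.8 to 30.0 CPM and endothelial cells 6.76 to 15.8 CPM. The microglial level thus stood above that of astrocytes and endothelial cells in every library. For every 100 UMIs of the oligodendrocyte genes *Mbp*, *Mog*, *Mag* and *Cnp* in the same cells there were 12.8 to 23.9 *Trf* UMIs in oligodendrocytes, 6.96 to 15.6 in astrocytes and 147 to 217 in microglia. After thinning to 500 UMIs, 64.5% to 79.6% of oligodendrocytes, 15.7% to 26.3% of microglia and 0% to 0.7% of endothelial cells had a *Trf* UMI. Both microglial clusters carried it, the one led by *Ccl4*, *Cd83* and *Il1a* at 347 to 514 CPM and the other, led by *P2ry12*, at 455 to 642 CPM. Over all kept cells *Trf* was at 417 to 428 CPM.

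*Tfrc* encodes the transferrin receptor, which takes up iron-loaded transferrin (GRCm38, chr16:32608896-32632794). Endothelial cells held 619, 404, 422 and 636 CPM, from 125 to 209 UMIs per library. Mural cells followed at 66.9 to 271 CPM, and astrocytes had 41.5 to 80.8 CPM. Microglia were at 1.70 to 17.5 CPM, the lowest median of the fitted types. After thinning to 500 UMIs, 18.7% to 28.4% of endothelial cells and 0% to 1.14% of microglia had a *Tfrc* UMI. The separation of endothelial cells depended on the mitochondrial limit, because at limits of 5% and 10% their lowest library, at 146 and 216 CPM, lay below the highest library of another type. At the 5% limit no mural cluster was found.

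*Slc40a1* encodes ferroportin, the iron exporter (GRCm38, chr1:45908070-45926532). It was at 473, 291, 372 and 481 CPM in endothelial cells and at 162, 195, 136 and 131 CPM in microglia. Mural cells lay between 66.6 and 106 CPM, and in every library astrocytes lay at or below 20.8 CPM and oligodendrocytes at or below 11.6 CPM. At the 5% limit the endothelial and the next type overlapped. Within microglia, the cluster led by *P2ry12* held 242, 253, 205 and 214 CPM and the cluster led by *Ccl4* 122, 122, 118 and 106 CPM. *Fth1* had the other order, at 1040 to 1711 CPM in the first and 1281 to 2168 CPM in the second, higher in the second in each library. *Tfrc* and *Slc40a1* thus shared a leading cell type, and microglia held the exporter with little of the receptor.

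*Slc11a2* encodes the divalent metal transporter that brings ferrous iron into the cytosol (GRCm38, chr15:100387898-100424209). It had 19, 7, 21 and 29 UMIs over all kept cells, too few to order the cell types. *Hmox1* encodes haem oxygenase 1, which frees iron from haem (GRCm38, chr8:75093618-75100593). Its microglial level was 28.8, 38.6, 59.5 and 57.9 CPM, from 19 to 34 UMIs per library, and every other fitted type lay at or below 13.5 CPM. An unnamed cluster of mixed markers contained 27 cells with macrophage markers, in which 10 *Hmox1* UMIs gave 269 CPM (95% exact Poisson interval 129 to 494, counting error only, the libraries summed).

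Between sexes, *Fth1* was higher in male libraries in microglia and astrocytes. The fitted log2 difference, male over female, was 0.65 (SE 0.14, adjusted p = 0.000245) in microglia and 0.78 (SE 0.14, adjusted p = 0.000704) in astrocytes by edgeR's quasi-likelihood test, adjusted over all genes tested. The call was lost with DESeq2 (adjusted p = 0.0571 and 0.068), in microglia with no mitochondrial limit (0.113) or without the female wild-type (0.123), female Tg2576 (0.141) or male Tg2576 library (0.242), and in astrocytes without the female wild-type (0.581) or male Tg2576 library (0.219), with the direction unchanged. In both types the lowest male library was above the highest female library, at 1800 against 1209 CPM and at 1169 against 747 CPM. *Ftl2-ps* was also higher in male libraries, by 2.03 (SE 0.17, adjusted p = 3.86e-28) in microglia. There *Ftl1* had male over female log2 ratios of 0.33 (-0.09 to 0.74) in wild-type and 0.0025 (-0.36 to 0.37) in Tg2576 libraries. With both rows summed the ratios were 1.53 (1.29 to 1.78) and 0.91 (0.66 to 1.18), all intervals for counting error only. The split of UMIs between the rows differed between libraries, as given above. Of the members tested in microglia, 2 of 6 were called for sex, beside 5.8% of all genes, and in astrocytes 1 of 2, beside 2.18%. Each fit had 1 residual degree of freedom, because no group had a replicate pool. For each gene it holds only how far the sex difference departed between the genotypes. The p-values therefore do not measure the spread between replicate pools or between animals.

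In the other fitted cell types *Fth1* did not pass the test. The fitted log2 difference was 0.39 (SE 0.21, adjusted p = 0.354) in oligodendrocytes, 0.49 (SE 0.18, adjusted p = 0.456) in endothelial cells and 1.16 (SE 0.40, adjusted p = 0.177) in mural cells. Within each genotype the male over female log2 ratio of *Fth1* lay between 0.25 and 1.75 in the 6 fitted types. The lowest was that of wild-type oligodendrocytes, and for the neuroblast or progenitor class of the wild-type libraries the counting interval included 0. At the 5% mitochondrial limit the ratio turned to -0.39 in Tg2576 endothelial cells and -0.18 in wild-type oligodendrocytes. Whether the sex difference itself differed between cell types was not tested.

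**Figure D4:**
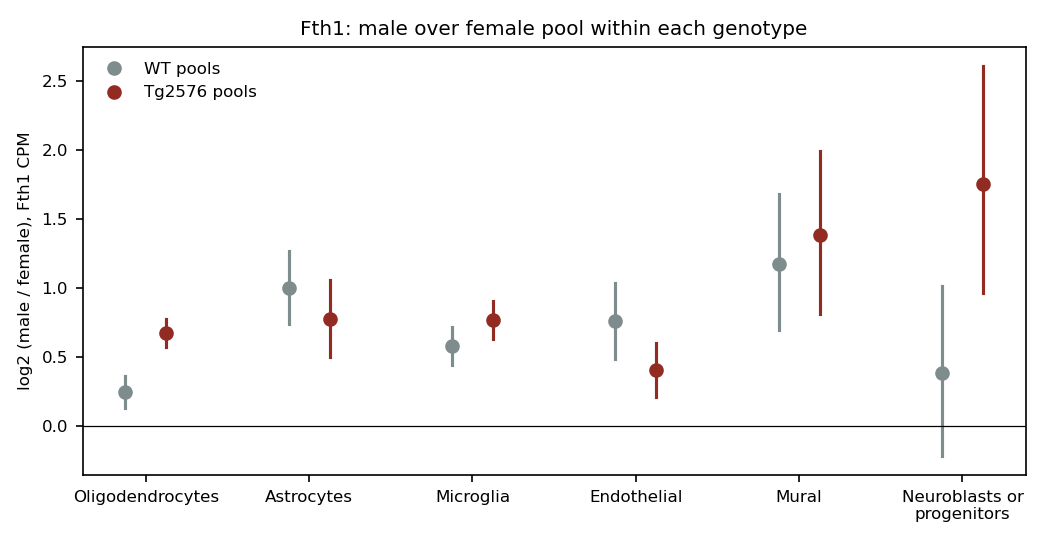
Log2 ratio of *Fth1* CPM, male over female (y axis), in 6 cell types (x axis), with wild-type libraries in grey and Tg2576 libraries in red; bars are 95% intervals for counting error only, with 1 library per sex and genotype. All 12 points lie above 0, from 0.25 to 1.75, and at a 5% mitochondrial limit those of Tg2576 endothelial cells and wild-type oligodendrocytes turned to -0.39 and -0.18.

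Barcodes with under 200 genes, taken here as a measure of RNA outside cells, also differed between libraries. In them *Fth1* was at 2330, 1080, 4929 and 2530 CPM. From the same 4 oligodendrocyte genes found in other cell types, the free RNA was estimated to supply 151 to 301 of the 1201 to 2063 CPM of *Fth1* in microglia. The estimate assumes that these genes reach other cell types only as free RNA with the make-up of those barcodes, which was not tested. In astrocytes the estimate was 164, 164, 294 and 367 CPM. After subtracting it, *Fth1* was at 1050, 1019, 1545 and 1762 CPM in microglia and at 419, 583, 875 and 913 CPM in astrocytes, with both male libraries above both female ones in each type. The mitochondrial share was also lower in both male libraries. The part of free RNA or of the mitochondrial share in the sex difference was not tested.

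For sex in the remaining fits, 1 of 8 members was called over all kept cells, *Ftl2-ps* at 1.78 (SE 0.18, adjusted p = 1.08e-19), beside 7.03% of all genes. In such sums, fewer cells of a type and less RNA per cell cannot be told apart. None of 5 members was called in endothelial cells (0.181% of genes), none of 2 in oligodendrocytes (2.76%), none of 2 in mural cells (0.684%) and not the 1 tested in the neuroblast or progenitor class (0.101%). At an unadjusted p under 0.05 these numbers were 2, 0, 1 and 1 with edgeR, and DESeq2 called 0 in each. *Ftl2-ps* in endothelial cells, at 1.80 (SE 0.42, adjusted p = 0.262), and *Fth1* accounted for the 2. DESeq2 also called 0 members for sex in microglia, astrocytes and all kept cells, where it gave no adjusted p for 4, 1 and 6 of them.

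Between genotypes, the only member called was *Ftl2-ps*, which was lower in the Tg2576 libraries. The fitted log2 difference, Tg2576 over wild-type, was -0.71 (SE 0.17, adjusted p = 0.0153) in microglia and -0.66 (SE 0.18, adjusted p = 0.0313) over all kept cells. That is 1 of 6 members in microglia, beside 0.518% of all genes, and 1 of 8 over all kept cells, beside 0.832%. DESeq2 called none in either. Fits that left out 1 library had no sex term, so that genotype in them was not balanced for sex. Without the male wild-type library the fitted difference was 0.69 in microglia and 0.54 over all kept cells. Without the female Tg2576 library it was -0.095 and -0.097. Without the female wild-type library it was -1.46 and -1.34 and without the male Tg2576 library -1.97 and -1.76. Because *Ftl2-ps* also differed by sex, these fits cannot show whether the calls rest on a single library. Over 15 alternatives the call was kept in 6 in microglia and 4 over all kept cells, and the losses included those with no low-count filter, no sex covariate, the 5% mitochondrial limit and no mitochondrial limit. *Ftl1* had a fitted value of 0.35 (SE 0.18, adjusted p = 0.584) in microglia. With both rows summed, the microglial log2 ratio was 0.14 (-0.16 to 0.43, counting error only) in females and -0.48 (-0.69 to -0.28) in males.

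No other member passed the genotype test in any cell type. In endothelial cells 0 of 5 members were called, beside 0% of all genes, and in astrocytes 0 of 2, beside 0.113%. In oligodendrocytes it was 0 of 2, beside 0.324%, in mural cells 0 of 2, beside 0.274%, and in the neuroblast or progenitor class 0 of 1, beside 0%. Among these 5 cell types no member had an unadjusted p under 0.05 with edgeR, and DESeq2 called 0. For *Fth1* the fitted differences were 0.06 (SE 0.14) in microglia, 0.17 (SE 0.13) in astrocytes, 0.22 (SE 0.21) in oligodendrocytes and 0.38 (SE 0.18, adjusted p = 0.897) in endothelial cells. In oligodendrocytes the log2 ratio was 0.01 (-0.11 to 0.13) in females and 0.44 (0.34 to 0.54) in males. In endothelial cells it was 0.62 (0.36 to 0.89) in females and 0.27 (0.06 to 0.48) in males. With 1 library per sex and genotype these ratios have no test, and their intervals cover counting error only.

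*Tfrc* and *Slc40a1* in endothelial cells had opposite genotype ratios in the sexes, which for *Slc40a1* did not hold with cells thinned to 500 UMIs. *Tfrc* had a log2 ratio of -0.62 (-0.94 to -0.29) in females and 0.59 (0.26 to 0.92) in males. *Slc40a1* had -0.70 (-1.08 to -0.33) in females and 0.37 (0.01 to 0.74) in males. The fitted differences shared by the sexes were -0.08 (SE 0.27, adjusted p = 0.984) and -0.22 (SE 0.26, adjusted p = 0.952). Without cells holding a haemoglobin UMI, the ratios were -0.62 and 0.59 for *Tfrc* and -0.67 and 0.34 (-0.02 to 0.71) for *Slc40a1*, so that the last no longer excluded 0. With cells thinned to 500 UMIs, the female and male ratios were -0.34 and 0.64 for *Tfrc* and -0.38 and -0.25 for *Slc40a1*. Those of *Slc40a1* thus no longer had opposite signs, in a single random draw and without intervals. The shares of cells with an *Slc40a1* UMI were 36.7%, 26.6%, 35.4% and 33.7% unthinned and 14.8%, 12.5%, 19.1% and 17.1% at 500 UMIs. Both sets were lower in Tg2576 in both sexes. At 300 UMIs they were 10.8%, 6.3%, 9.9% and 12.1%, opposite in the sexes. The male intervals there, 6.1% to 15.0% and 8.6% to 16.3%, overlapped. For *Tfrc* the shares were opposite in the sexes unthinned and at 500 UMIs. At 300 UMIs they were 13.5%, 12.3%, 16.7% and 14.4%, lower in Tg2576 in both sexes. The difference between the sexes was not tested, as each is a pair of pools.

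**Figure D5:**
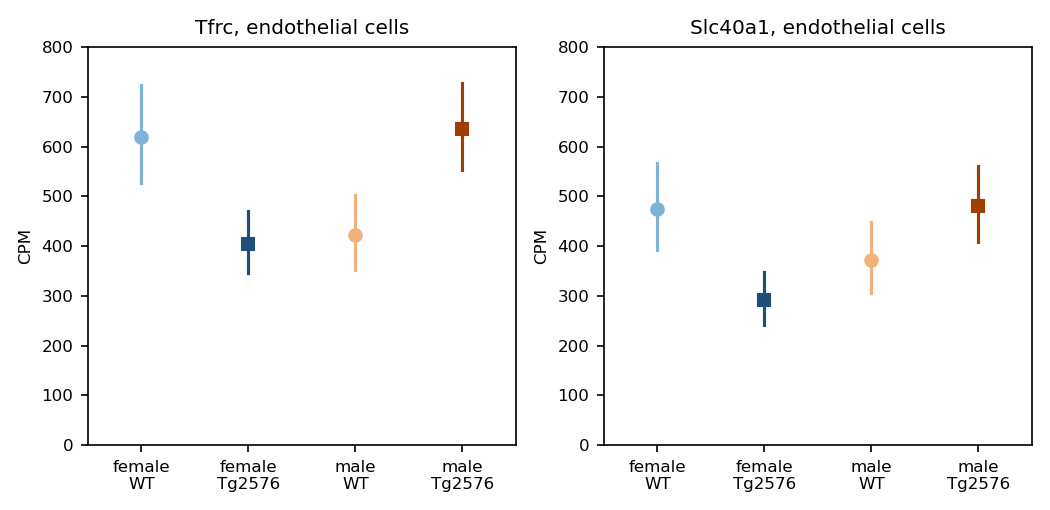
*Tfrc* (left) and *Slc40a1* (right) in endothelial cells (y axis, CPM) in each library (x axis); circles are wild-type, squares Tg2576, and bars 95% intervals for counting error only. In both panels the female Tg2576 library is lowest, and the male Tg2576 and female wild-type libraries are the highest.

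A wider list of 50 genes of iron handling, haem metabolism and ferroptosis, 45 of them in the tables, was read from the same fits. Over all kept cells 2 of 33 genes tested were called for genotype, both higher in Tg2576, beside 0.832% of all genes. *Slc39a8*, a metal ion importer, was at 31.4, 73.7, 26.7 and 38.1 CPM (log2 difference 0.86, adjusted p = 0.0335). It was also called for sex over all kept cells, lower in male libraries. Its leading type was endothelial cells, which numbered 150, 304, 198 and 309 among the kept cells, and within them it had a log2 difference of 0.53 (adjusted p = 0.897). *Lcn2*, a siderophore-binding protein, had 0, 15, 4 and 14 UMIs (adjusted p = 0.0463). Whether either call was kept in the alternatives, DESeq2 among them, is not given here. Over the settings, the number of all genes called for genotype over all kept cells ranged from 4 to 106. Over all kept cells the list's median log2 difference was -0.012, against -0.0066 over all genes. In microglia 0 of 25 were called with edgeR (0.518% of all genes), 0 had an unadjusted p under 0.05, and DESeq2 called 0 of all genes. In astrocytes 0 of 13 were called with edgeR (0.113%), with 3 at an unadjusted p under 0.05, among them *Slc7a11*, a cystine transporter, and *Nfe2l2*, a regulator of antioxidant genes, and DESeq2 called 2 of all genes tested. In endothelial cells 0 of 16 (0%) and in oligodendrocytes 0 of 9 (0.324%) were called with edgeR, 0 had an unadjusted p under 0.05 in either, and DESeq2 called 0 of all genes. *Slc48a1*, a haem transporter and the gene of the list named in oligodendrocytes, was at 415, 495, 512 and 668 CPM there (log2 difference 0.31, adjusted p = 0.792).

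For sex, the list had 4 of 33 genes called over all kept cells, beside 7.03% of all genes, 1 of 25 in microglia, beside 5.8%, and 1 of 13 in astrocytes, beside 2.18%. Of the genes called over all kept cells, *Slc22a17* was higher in male libraries, and *Nfe2l2*, *Slc39a8* and *Slc7a11* were lower. *Blvrb*, a biliverdin reductase, was higher in male microglia by 1.61 (adjusted p = 0.00296). *Slc7a11* was lower in male astrocytes, with a log2 difference of -0.91 (adjusted p = 0.00521). In microglia the median log2 difference of the list was 0.29, against 0.0027 over all genes tested. The list median was 0.25 in oligodendrocytes, 0.17 over all kept cells, 0.16 in endothelial cells and 0.03 in astrocytes. In mural cells, with 4 genes tested, it was 0.31. It was negative in the neuroblast or progenitor class, where 1 gene was tested.

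Beyond *Gm6977*, the rows most like *Trf* were *Arsg* (r = 0.949), *Evi2a* (r = 0.938) and *Bin1* (r = 0.935) over the same 24 sums. For *Slc40a1* they were *Rhobtb1* (r = 0.928), *Tbc1d4* (r = 0.924) and *Lmo2* (r = 0.923). *Tfrc* was most like *Sptbn1* (r = 0.878) and *Ftl1* most like *Gngt2* (r = 0.915). Among the members themselves, *Fth1* and *Trf* were the pair most alike (r = 0.80), followed by *Ftl1* and *Ftl2-ps* (r = 0.61), while *Fth1* and *Ftl1* were near 0 (r = -0.00047).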

How the data were processed

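The deposited tables hold raw UMI counts per gene and barcode, made by the authors with a Drop-seq workflow on mm10. Per the submitters' processing notes Seurat 3.1.4 was used. The treatment of reads matching several copies of a gene is not given in the sources used here. Each library had 3000 barcodes and 1926857 to 2294296 UMIs. 18218 of 27487 symbols were in all 4 tables, and a symbol missing from a table was taken as 0. Barcodes with 200 to 7000 genes and at most 20% mitochondrial UMIs were kept. The study's methods used 5%, which keeps 14.5% to 55.6% of the barcodes with at least 200 genes and was an alternative here.

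Cells were clustered with Seurat 5.3.0 (sctransform 0.4.2, 2500 variable genes, 19 components, resolution 0.5), leaving out the iron genes, and clusters were named from marker lists. Scrublet (scanpy 1.11.5) called 92 of 4835 cells doublets. They were kept, and removed in an alternative. The UMIs of each cell type were added up within each library. Types with at least 20 cells in every library were fitted with edgeR 4.0.16 (quasi-likelihood, TMM, genotype and sex as terms, Benjamini-Hochberg over all genes, threshold 0.05), in R 4.3.3 and Python 3.11.15. The SE of a log2 difference was calculated from the test, as its absolute value divided by the square root of the F statistic. The fit was tested on simulated data. DESeq2 1.42.0 was an alternative. CPM is UMIs per 1000000. Intervals are 95%, exact, and cover counting error only. Separately from these intervals, 3 counts was taken as the floor for a count of 0.

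All members are named. From the wider list, genes called for genotype, and up to 2 per direction and cell type with ratios of 1 sign in both sexes, were eligible. Genes called for sex were named after their values were seen. The members and lists were chosen with earlier results of these data known. Alternatives changed the cell filter, cluster resolution, normalisation, low-count filter, covariate and depth, or left out each library. A fit that left out a library had genotype or sex as its only term. Those for sex, and the endothelial subsets, were added after seeing the data.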

Additional observations from a re-analysis of the deposited data

Results flagged for a closer look

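The log2 ratio of Tg2576 over wild-type in endothelial cells pointed one way in females and the other in males for 2 genes. It was -0.62 in females and 0.59 in males for *Tfrc*, and -0.70 in females and 0.37 in males for *Slc40a1*. With cells thinned to 500 UMIs the male ratio of *Slc40a1* was -0.25, of the same sign as the female one (-0.38). Those of *Tfrc* stayed opposite at -0.34 and 0.64. The directions of the shares of cells with a UMI changed with depth for both genes. For *Slc40a1* the shares were lower in Tg2576 in both sexes unthinned and at 500 UMIs, and opposite in the sexes at 300 UMIs. For *Tfrc* they were opposite unthinned and at 500 UMIs, and lower in Tg2576 in both sexes at 300 UMIs. Each ratio compares 2 pools and the difference between the sexes was not tested.

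Barcodes with under 200 genes, which entered no fit, also held UMIs of the iron genes. Over the 4 libraries there were 2531 of *Fth1*, 172 of *Trf*, 65 of *Tfrc*, 51 of *Slc40a1*, 41 of *Ftl2-ps* and 24 of *Ftl1*.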

How the results depend on the processing

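*Ftl2-ps* for sex stayed called in microglia and over all kept cells in the 13 alternatives that gave an adjusted p, which DESeq2 did not. *Fth1* for sex stayed called in 9 of 14 in microglia and 10 of 13 in astrocytes, with adjusted p from 4.79e-06 to 0.242 and from 2.14e-06 to 0.581. It was lost at 0.65 (DESeq2) and 0.64 (no mitochondrial limit) in microglia and at 0.76 (DESeq2) in astrocytes, and leaving out libraries gave 0.58 to 0.72 and 0.61 to 0.94. *Ftl2-ps* for genotype stayed called in 6 of 15 in microglia and 4 of 15 over all kept cells. In microglia the call was lost at -0.71 (no low-count filter), -0.74 (no sex covariate), -0.69 (DESeq2), -0.72 (resolution 0.06), -0.65 (5% limit) and -0.72 (no limit). Over all kept cells it was lost at -0.67 (RLE scaling), -0.66 (no low-count filter), -0.70 (no sex covariate), -0.66 (DESeq2), -0.99 (5% limit), -0.70 (10% limit), -0.70 (no limit) and -0.65 (at least 500 genes). Leaving out libraries gave -1.97 to 0.69 in microglia and -1.76 to 0.54 over all kept cells. It also gave, for *Fth1* and genotype, -0.22 to 0.67 in astrocytes, -0.36 to 0.40 in microglia and -0.071 to 0.49 in oligodendrocytes, and, in endothelial cells, -0.53 to 0.065 for *Slc40a1* and -0.36 to 0.24 for *Tfrc*. The genotype fits that left out a library had no sex term and were unbalanced for sex, so their ranges also hold any sex difference. The cause of the lost calls was not tested.

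At the 5% limit the log2 ratio of *Fth1* turned to -0.060 for male genotype in endothelial cells, -0.39 for male over female in Tg2576 endothelial cells and -0.18 for male over female in wild-type oligodendrocytes. Thinning to 500 UMIs turned *Trf* for male over female in wild-type oligodendrocytes to 0.10 and *Slc40a1* for male genotype in endothelial cells to -0.25. Thinning also ended the separation of microglia for *Ftl1* and *Hmox1*. The highest library of another type was then at 133 and 76.9 CPM, against 131 and 31.7 CPM in the lowest microglial library. For *Ftl1* that was the female Tg2576 mural cells, where 2 of 30 cells held a UMI.

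The number of genes called for genotype in all kept cells was 106, and 63 (RLE), 8 (no sex covariate), 7 (DESeq2), 10 (5% limit), 4 (10% limit), 57 (no limit) and 31 to 57 without 1 library. The number of genes called for genotype in microglia was 39, and 20 (no filter), 0 (no sex covariate), 0 (DESeq2), 14 (resolution 0.06), 5 (5% limit), 16 (10% limit), 0 (no limit) and 3 to 9 without 1 library. The number of genes called for sex in all kept cells was 895, and 28 (DESeq2), 283 (5% limit) and 172 to 408. The number of genes called for sex in microglia was 436, and 269 (no filter), 15 (DESeq2), 149 (5% limit), 14 (no limit) and 64 to 184. In the other fitted types the number called ranged, over the settings, from 1 to 11 in astrocytes, 0 to 23 in endothelial cells, 0 to 12 in oligodendrocytes, 0 to 6 in mural cells and 0 to 20 in the neuroblast or progenitor class for genotype, and from 10 to 228, 1 to 69, 3 to 85, 0 to 37 and 0 to 22 for sex. Depth limits *Slc11a2* and *Hmox1* throughout. No paired analysis was possible because each group is 1 pool with no replicate number.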
